A study of Mus musculus with 5 samples.

Results

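Toll-like receptors sense microbial molecules, and 8 of their genes (Tlr1 to Tlr7 and Tlr9), together with the co-receptor gene Cd14 and the adaptor gene Myd88, were described in cells sorted from newborn mouse lung. They were read from all probe sets that the platform annotation assigns to one of these 10 symbols alone, which gave 16 probe sets of 34958 with 1 gene symbol, and 10 genes of 18194. RNA came from cells that carried GFP and were collected by flow cytometry, on postnatal day 2, after the lungs of SPC-GFP pups had been digested with trypsin and EDTA. The pups were offspring of timed matings between the SPC-GFP line and the outbred ICR strain. All 5 biological replicates belonged to 1 group and had 1 one-colour array each, so no other genotype, age or treatment could be compared. SPC commonly stands for surfactant protein C, which alveolar type 2 cells make. The titles call the cells alveolar type 2 cells and the design text calls them ciliated cells. The titles call the samples biological replicates, but the labels do not say whether each was 1 pup or a pool. The p-values therefore rest on the spread of these 5 samples alone, part of which may be technical.

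Toll-like receptors are single-pass membrane proteins with an outer or luminal leucine-rich part that binds ligand and an inner TIR domain that recruits adaptors. Most of them signal through MYD88 to kinases of the IRAK family and on to NF-κB, while TLR3 uses the adaptor TRIF. In the lung they are best known from macrophages and neutrophils, and airway and alveolar epithelium also carries some of them. TLR2 pairs with TLR1 or TLR6 to bind bacterial lipoproteins, TLR4 with MD-2 and CD14 binds lipopolysaccharide, and TLR5 binds flagellin. TLR3, TLR7 and TLR9 act in endosomes on double-stranded RNA, single-stranded RNA and unmethylated CpG DNA.

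Marker genes of several cell types lay above the chemosensory background in the same sort, as did 74.9% of all genes. All 10 alveolar type 2 markers lay above background, and the mean of the list, each gene centred on its own mean, stayed within −0.10 to 0.09 log2 units on the 5 arrays. All 8 pan-leukocyte markers lay above it, but without probe sets that can cross-hybridise Ptprc (limma adjusted p = 0.646) and Laptm5 (−0.67 log2 units relative to it) did not. The calls also took in 17 of 18 macrophage and monocyte markers (not Itgam, an integrin gene) and 6 of 9 neutrophil markers (not Mpo, Elane or Cxcr2), the second a smaller share than that of all genes. All 10 measured ciliated markers were called too. Fewer markers cleared the stricter background described below, which 56.5% of all genes did. It was cleared by all 10 alveolar type 2 and all 8 pan-leukocyte markers. Of the macrophage and monocyte markers 10 of 18 cleared it, of the neutrophil markers 5 of 9 and of the ciliated markers 6 of 10. The median signal of an array was 7.12 to 7.19 log2 units.

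Every one of the 10 genes had a probe set above background, but only 6 of them also cleared a stricter background. Values are deposited signals on a log2 scale, a base inferred from their range. On each array 78 taste, smell and pheromone receptor genes (chemosensory receptors) were ranked, and their 95th percentile served as background, which lay between 5.41 and 5.69. With a one-sided limma test and an adjusted p (Benjamini-Hochberg) under 0.05, 14 of the 16 member probe sets were above it, where 71.6% of all probe sets were. Counting 1 probe set per gene (the one of highest mean), all 10 genes were above it, against 74.9% of all genes. The stricter background, from 46 genes restricted to other organs, lay between 7.71 and 8.28. Above it lay Tlr2, Tlr3, Tlr4, Tlr5, Cd14 and Myd88, 6 of 10 genes, against 56.5% of all genes, and 7 of 16 probe sets, against 47.3% of all probe sets. The members' share above the stricter background was therefore close to that of all genes. The median signal over the chemosensory background was 3.59 log2 units for the 10 genes and 3.43 for all genes tested. Levels are not ranked between genes, because probe sets differ in how brightly they hybridise.

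**Figure D1:**
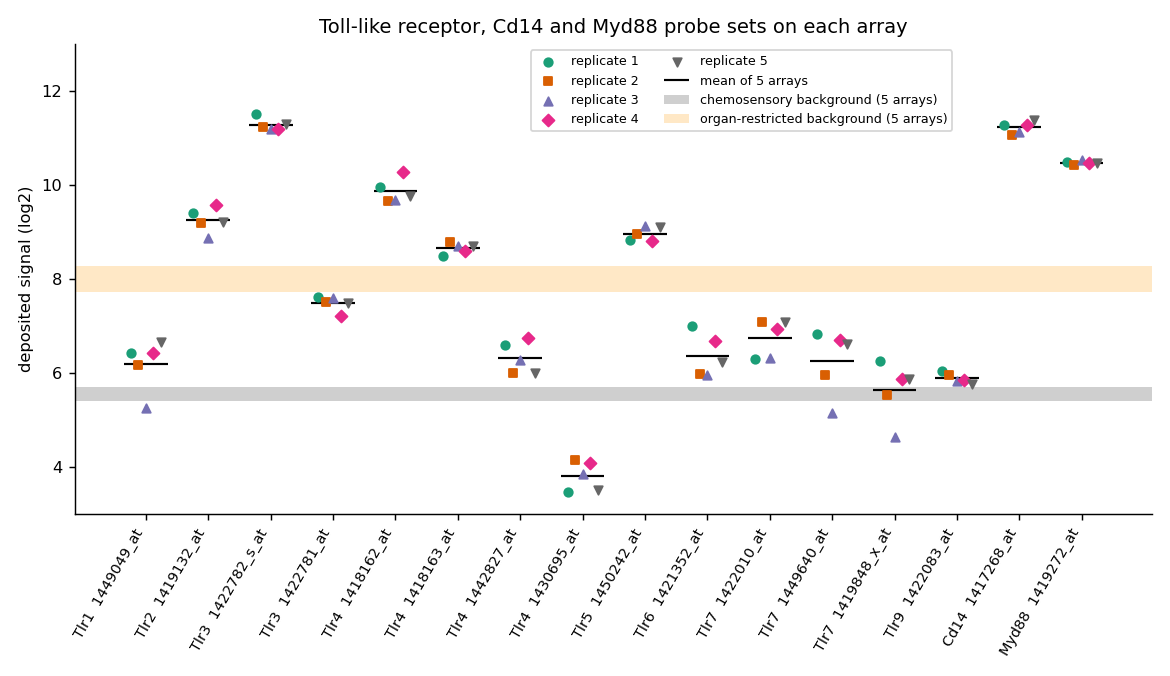
Deposited log2 signal (vertical axis) of the 16 member probe sets (horizontal axis) on each array; points are replicates, black lines are means, the grey band is the range of the chemosensory background and the pale orange band that of the organ-restricted background over the arrays. Tlr2, Cd14, Myd88, Tlr5 and the leading probe sets of Tlr3 and Tlr4 sit above both bands, and Tlr1, Tlr6, Tlr7 and Tlr9 sit near or just above the lower one.

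Among the receptors of the cell surface, Tlr2, the common partner for bacterial lipoproteins, read 9.40, 9.18, 8.88, 9.57 and 9.21 in replicates 1 to 5. Replicate 4 was highest and replicate 3 lowest, a 1.62-fold range, and the mean was 9.25 ± 0.261 (SD, n = 5). It stood 3.74 log2 units over the background (SE 0.103, limma adjusted p = 7.19e-15). Its 2 partner genes lay near the background.

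Tlr1 read 6.42, 6.17, 5.25, 6.43 and 6.65 in replicates 1 to 5. Replicate 3 alone fell under the chemosensory background of its array, and the range was 2.64-fold. Its mean was 6.18 ± 0.55 (SD, n = 5), 0.67 over the background (SE 0.171, limma adjusted p = 0.00119). Without replicate 3 its range was 1.39-fold.

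Tlr6 read 7.005, 5.96, 5.95, 6.69 and 6.24, with replicate 1 highest and replicates 2 and 3 almost equal at the bottom. Its mean of 6.37 ± 0.464 (SD, n = 5) was 0.86 over the background (SE 0.158, limma adjusted p = 7.09e-05). Neither partner gene cleared the 99th percentile of the chemosensory receptors: Tlr1 stood at −0.28 and Tlr6 at −0.097 log2 units relative to it.

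Tlr4, the lipopolysaccharide receptor, had 4 probe sets that disagreed in level. The leading one, 1418162_at, read 9.95, 9.66, 9.67, 10.28 and 9.77 in replicates 1 to 5, highest in replicate 4. Probe set 1418163_at, annotated to the same transcript record, read 8.48, 8.79, 8.71, 8.59 and 8.70, lowest in replicate 1. These 2 differed by 1.21 ± 0.352 log2 units (SD over the arrays), and the order of the replicates differed between them as well.

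Another Tlr4 probe set, 1442827_at, averaged 6.32 ± 0.337 (SD, n = 5) and followed the leading one, with replicate 4 highest and replicate 2 lowest in both. The last, 1430695_at, averaged 3.81 ± 0.31 (SD, n = 5) and was below background on all 5 arrays. Each of these is annotated to a sequence record of its own. Thus the gene's signal over background rests on 3 of its 4 probe sets, and over the stricter background on 2.

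Cd14, whose product hands lipopolysaccharide to the TLR4 complex, read 11.28, 11.06, 11.13, 11.27 and 11.38 in replicates 1 to 5. All 5 arrays lay within 1.24-fold, and the mean of 11.22 ± 0.127 (SD, n = 5) was 5.71 over the background (SE 0.0743, limma adjusted p = 7.83e-19). Tlr5, the flagellin receptor, read 8.84, 8.95, 9.13, 8.80 and 9.10. Its range was 1.25-fold, and replicate 3, where Tlr1 and Tlr2 were lowest, was its highest array.

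Of the endosomal receptors, Tlr3 had 2 probe sets for 1 transcript record. The leading one, 1422782_s_at, read 11.50, 11.22, 11.19, 11.20 and 11.29 in replicates 1 to 5, a 1.25-fold range. Its name ends in a suffix that marks possible hybridisation to other transcripts. The other, 1422781_at, averaged 7.49 ± 0.161 (SD, n = 5), 3.79 ± 0.156 log2 units lower (SD over the arrays), and was not above the stricter background (−0.40 relative to it). Replicate 1 was highest in both.

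Tlr7 had 3 probe sets. The leading one, 1422010_at, read 6.30, 7.07, 6.32, 6.92 and 7.09 in replicates 1 to 5, low in replicates 1 and 3. Probe sets 1449640_at and 1419848_x_at are annotated to a single shared sequence record. The first of them read 6.82, 5.96, 5.14, 6.70 and 6.62, and the second 6.25, 5.52, 4.63, 5.87 and 5.87. Both were highest in replicate 1 and lowest in replicate 3, so the probe sets of the gene contradict each other on replicate 1. Probe set 1419848_x_at was not above background (0.12 over it, limma adjusted p = 0.36) except without replicate 3 (adjusted p = 0.0224) or against the 90th percentile (adjusted p = 0.0137).

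Tlr9, the receptor for CpG DNA, read 6.05, 5.95, 5.84, 5.85 and 5.76, all within 1.22-fold. It was 0.38 over the background (SE 0.124, limma adjusted p = 0.00643) and at −0.58 relative to the 99th percentile, so its call depends on which percentile is taken as background.

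Myd88, the adaptor used by all members of the family except TLR3, read 10.48, 10.42, 10.52, 10.46 and 10.47 in replicates 1 to 5. The 5 arrays lay within 1.07-fold of each other, around a mean of 10.47 ± 0.0369 (SD, n = 5), which was 4.96 over the background (SE 0.0804, limma adjusted p = 9.84e-18). That was the narrowest spread of the 16 probe sets.

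Stretches of upstream sequence are shown for the members that were lowest in replicate 3 (Tlr1, Tlr2, Tlr3 and Tlr6) and for Myd88, the one that varied least. RefSeq promoter sequences (GRCm38.p6) were used for 7 of the 10 genes with 9 start sites. None were given for Tlr4 or Tlr7, and Cd14 was left out of the search. The 250 bases before each start were searched on both strands for the NF-κB consensus, for the ETS motif of the PU.1 type GAGGAAGT and for the interferon response core, which is GAAA, any 2 bases and GAAA. Capitals mark a match, on either strand, and each line reads 5′ to 3′ on the gene's strand, which is the minus strand in all 5 genes.
Tlr1, ETS motif, chr5:64933563-64933592: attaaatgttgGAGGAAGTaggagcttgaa
Tlr2, NF-κB consensus, chr3:83841762-83841791: taggacacctGGGGAATTCCCacacggagc
Tlr3, NF-κB consensus, chr8:45410572-45410601: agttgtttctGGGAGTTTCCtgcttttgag
Tlr6, interferon response core, chr5:64959260-64959289: ctattctTTTCTCTTTCACTTTCtgtttga
Myd88, interferon response core, chr9:119340039-119340068: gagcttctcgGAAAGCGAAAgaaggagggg
The matches in Tlr2 overlap each other, as do those in Tlr6. Of 32851 promoters of that length, 3.9% held the NF-κB consensus, 2.44% the ETS motif and 2.98% the interferon response core. Tlr5, Tlr9 and the other listed starts of Tlr1 and Tlr6 held none of these letters in the window. A TATA box (TATAAA) was searched for as well and is not marked above. It matched in Myd88 and in the other listed start of Tlr6, in none of the other starts shown, and in 12.4% of all promoters. All matches are letters in a window only, and those of the marked motifs do not split the genes lowest in replicate 3 from Myd88.

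The members differed in how much they varied between replicates, and none passed the test of spread. The variance over the 5 arrays was divided by the variance that limma fitted for genes of the same signal, with a one-sided F test. After Benjamini-Hochberg adjustment 0 of the 10 members were called, where 0% of all genes were; at an unadjusted p under 0.05 it was 0 members, where 5.58% of all genes were. By probe set 0% of all were called, and unadjusted 2 of the 16 (the Tlr7 pair of one sequence record) against 5.47% of all. The adjusted test left even Scgb3a1, a club and secretory marker, uncalled. That gene ranged 23.9-fold, at 9.13 times its fitted SD (limma-based adjusted p = 0.81). The lack of an adjusted call therefore does not show that the members were steady. The largest ratio of SD to fitted SD belonged to Tlr1 at 2.09 (limma-based adjusted p = 0.956), followed by Tlr6 at 1.75, Tlr4 at 1.62 and Tlr7 at 1.49. The smallest were Myd88 at 0.261 and Tlr9 at 0.428. In total 7 of the 10 members exceeded their fitted SD, against 49.4% of all genes, and the median ratio was 1.24 for members and 0.991 for all genes.

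**Figure D2:**
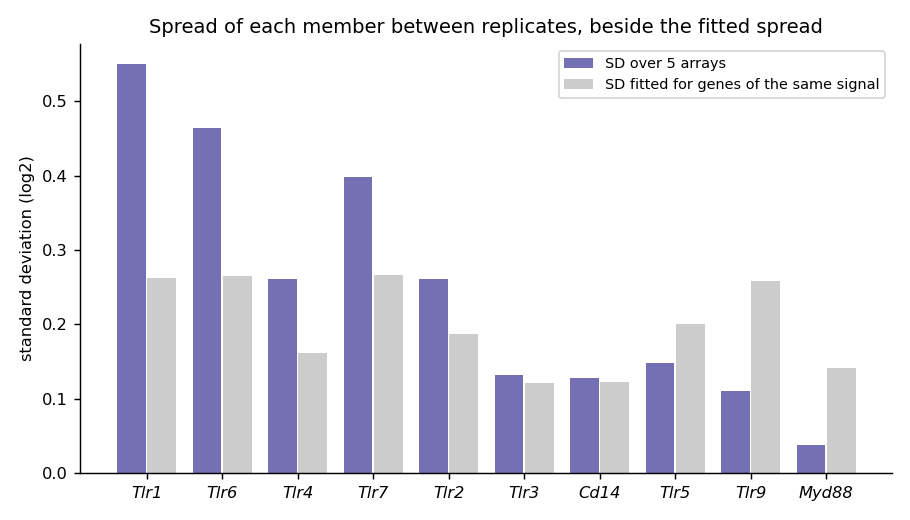
Standard deviation in log2 units over the 5 arrays (purple bars) for each member gene's leading probe set, beside the SD fitted for genes of the same signal (grey bars). Tlr1, Tlr6, Tlr7, Tlr4 and Tlr2 exceed their grey bar clearly, Tlr3 and Cd14 match it, and Tlr5, Tlr9 and Myd88 stay under it.

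Most varying members were low in replicate 3, and some of them were about as low in another array. Each gene was centred on its own mean over the arrays, and the median of all centred genes above background was then subtracted array by array, which gives its deviation. Tlr1 deviated by −0.94, Tlr6 by −0.42, Tlr7 by −0.42 and Tlr2 by −0.37 in replicate 3. Another 4 members were lower there than the mean of the other arrays by smaller amounts, which made 8 of 10, against 49.5% of all genes above background. Tlr5 and Myd88 were the exceptions, at 0.17 and 0.05. Replicate 3 was the lowest array outright for 4 members, against 24.6% of all genes above background. That array was singled out with these values in view, so both counts are a description without a test. Tlr7 was about as low in replicate 1 (−0.44), Tlr6 in replicate 2 (−0.40), and Tlr4 was at −0.20 in both replicates 2 and 3. Without replicate 3 the range of Tlr6 went from 2.08-fold to 2.06-fold, and those of Tlr7 (1.73-fold) and Tlr4 (1.54-fold) were unchanged. The range of Tlr1 fell from 2.64-fold to 1.39-fold and that of Tlr2 from 1.62-fold to 1.31-fold. All these values are those of each gene's leading probe set. Tlr7 probe sets 1449640_at and 1419848_x_at were instead highest in replicate 1 (6.82 and 6.25) and lowest in replicate 3. Tlr4 probe sets 1418163_at (8.79) and 1430695_at (4.14, below background) were highest in replicate 2, and 1442827_at was lowest there (5.99). The mean deviation of the 10 members was 0.11, −0.06, −0.24, 0.14 and 0.05 in replicates 1 to 5, a 1.30-fold range (0.38 log2 units, and 0.20 without replicate 3).

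Of 6 leukocyte marker lists 4 were lowest in the same array, and so were several lists of other cells. The pan-leukocyte list deviated by 0.06, 0.00, −0.59, 0.25 and 0.29 in replicates 1 to 5, with 7 of 8 genes lowest in replicate 3. Its summed linear signal ran from 17860 to 27017. The macrophage and monocyte list deviated by −0.04, 0.05, −0.48, 0.11 and 0.37, with 13 of 17 genes lowest in replicate 3 and a summed signal of 37637 to 44546. The genes not lowest there were Csf1r, Siglecf, Mertk and Lyz2, and Lyz2, averaging 14.34, was the brightest gene in that sum.

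The neutrophil list moved most, by 0.51, −0.34, −1.14, 0.92 and 0.05, with all 6 genes above background lowest in replicate 3 and a summed signal of 6283 to 22325. Replicate 4 was the top array of the neutrophil list (3 of 6 genes highest there) and also of the alveolar type 2 and erythroid lists. It was the top array of Tlr2 and of 2 of the 4 Tlr4 probe sets too. The pan-leukocyte and macrophage lists were highest in replicate 5. Further lists were lowest in replicate 3 too: fibroblast and smooth muscle markers (−0.61, 7 of 8 genes lowest there), club and secretory markers (−0.57, 1 of 5), ciliated markers (−0.54, 5 of 10) and T and NK lymphocyte markers (−0.33, 2 of 5). The ciliated list was highest in replicate 1 at 1.05 and ranged 3.01-fold. The lists not lowest there were those of B lymphocytes (0.04, 0 of 3 genes), dendritic cells (0.02, 0 of 4), alveolar type 2 cells (0.01, 0 of 10), alveolar type 1 cells (0.10, 0 of 8), endothelium (−0.15, 4 of 8) and erythroid cells (−0.28, 0 of 2). The part of these cells in the members' values was not tested, and in bulk RNA fewer cells of a type and less RNA per cell cannot be told apart.

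**Figure D3:**
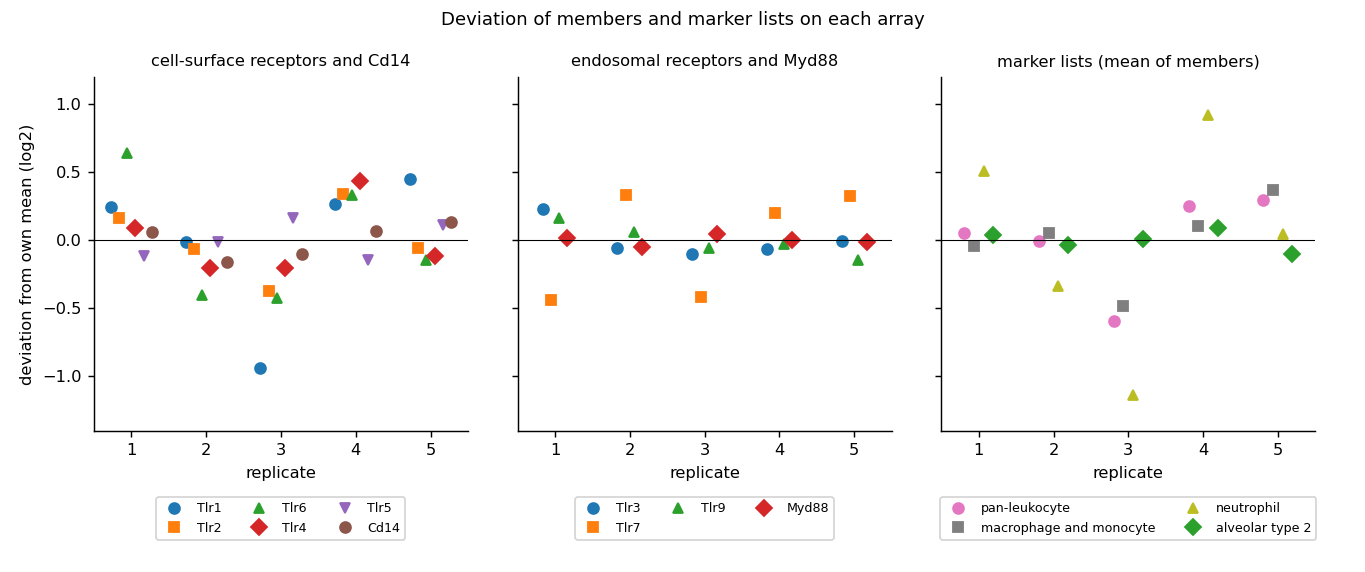
Deviation from the gene's own mean in log2 units (vertical axis) by replicate (horizontal axis) for the cell-surface receptors and Cd14 (left), the endosomal receptors and Myd88 (middle) and 4 marker lists (right, mean of the list's members above background). Tlr1, Tlr2, Tlr6 and Tlr7 and the 3 leukocyte lists sit below 0 in replicate 3, whereas Myd88 and the alveolar type 2 list stay close to 0 on all arrays.

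The genes whose deviations were most like those of the 3 members of widest range were found by the root mean square difference over the 5 arrays, among 13575 other genes above background. For Tlr1 they were Arhgdib, a gene best known from blood cells (0.0787), Ncf4, a subunit gene of the phagocyte oxidase (0.0808), and Alox5ap, needed for leukotriene synthesis (0.0831), against a median of 0.513 over all genes. Arhgdib read 9.70, 9.57, 8.67, 9.74 and 9.86 in replicates 1 to 5, with the low array of Tlr1. For Tlr6 they were 2610318N02Rik (0.0268), Mlkl, the effector gene of necroptosis (0.0395), and Arhgap11a (0.0693), against a median of 0.442. For the leading probe set of Tlr7 they were Art4 (0.0725), Rnf112 (0.0803) and Pgc, a pepsinogen gene (0.0864), against a median of 0.382. Art4 read 5.42 and 5.36 in replicates 1 and 3, under the chemosensory background of those arrays (5.44 and 5.47). These differences are a description without a test.

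Beyond the members, 8 lists of pathway genes held 84 genes, of which 75 had a probe set annotated to that gene symbol alone. The others were not analysed, whether or not the array holds probe sets for them. Of these, 68 lay above background, where 74.9% of all genes did, and 50 above the stricter one, where 56.5% did. The list counts below stand against the same 74.9%, and the accessory and other Toll-like receptor lists, at 66.7% each, were under it. Above the stricter background were 4 of 6 accessory genes, 9 of 11 adaptors and kinases and 8 of 12 IKK, NF-κB and IRF genes. So were 9 of 14 negative regulators, 4 of 5 receptors that share MYD88 and 11 of 18 output genes. The accessory proteins that deliver ligand were split. Ly96, which encodes MD-2, averaged 8.88 ± 0.11 (SD, n = 5), the lipopolysaccharide-binding protein gene Lbp 12.19 ± 0.21 and the scavenger receptor gene Cd36 13.21 ± 0.0898. Cd180, a receptor gene of B cells related to Tlr4, averaged 4.36 ± 0.25 and Rnase2a, an eosinophil ribonuclease gene, 4.91 ± 0.63, both not above background, so 4 of 6 were called.

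Of the other Toll-like receptors 2 of 3 were called, Tlr12 at 6.24 ± 0.18 and Tlr13 at 7.01 ± 0.36 (SD, n = 5), the sensors of profilin and of bacterial ribosomal RNA in mice. Tlr8 averaged 3.85 ± 0.36 and was not above background. Tlr13 read 7.10, 7.19, 6.40, 6.99 and 7.35, lowest in replicate 3. None of these 3 cleared the stricter background.

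Trafficking chaperones were called in 6 of 6 cases. Unc93b1, which carries the endosomal receptors out of the endoplasmic reticulum, averaged 7.92 ± 0.22 (SD, n = 5) and was not above the stricter background. Hsp90b1, the folding chaperone of the family, averaged 12.68 ± 0.0868, Cnpy3, its co-chaperone, 10.43 ± 0.0851 and the related Cnpy4 11.19 ± 0.12. The chaperone list deviated by −0.11 to 0.07 over the arrays.

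Adaptors and proximal kinases were called in 11 of 11 cases, and their list deviation stayed within 1.07-fold. Tirap, which bridges TLR2 and TLR4 to MYD88, averaged 10.02 ± 0.14 (SD, n = 5), Ticam1, which encodes TRIF, 8.74 ± 0.14, and the kinase genes Irak1 and Irak2 10.67 ± 0.033 and 10.04 ± 0.13. Irak4, Traf3 and Ticam2 were not analysed here. IKK, NF-κB and IRF genes were called in 12 of 12 measured cases, and Chuk and Nfkb1 of that list were not analysed here. Ikbkb averaged 11.28 ± 0.10 and Ikbkg 10.60 ± 0.16, both of the kinase complex that releases NF-κB, while the NF-κB subunit genes Nfkb2 and Rel averaged 9.32 ± 0.12 and 6.64 ± 0.42.

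Negative regulators were called in 13 of 14 cases. Tollip and Sigirr, which dampen signalling at the receptor complex, averaged 12.70 ± 0.034 and 10.61 ± 0.0418 (SD, n = 5), and Tnfaip3, the ubiquitin-editing brake on NF-κB, 10.15 ± 0.12. Irak3, an inhibitory kinase homologue best known from monocytes and macrophages, averaged 5.999 ± 0.38. The exception was Socs1 at 5.44 ± 0.41. The receptors of the interleukin family that share MYD88 were called in 5 of 5 cases, with Il1r1 at 11.27 ± 0.26, Il1rap at 9.37 ± 0.10, Il18r1 at 11.93 ± 0.15 and Il18rap at 7.15 ± 0.11.

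Genes that are induced by this pathway in many cells were called in 15 of 18 cases. Tnf averaged 8.83 ± 0.10 (SD, n = 5), Il6 7.85 ± 0.35 and Il1b 11.03 ± 0.50. Il10 (4.23 ± 0.37), Ccl5 (5.72 ± 0.56) and Ifnb1 (5.22 ± 0.0848) were not above background. Against the 90th percentile Ccl5 was (0.64 over it, limma adjusted p = 0.00543). Il1b read 11.55, 10.85, 10.25, 11.22 and 11.31 in replicates 1 to 5, lowest in replicate 3, and the list as a whole deviated by 0.18, −0.03, −0.25, 0.14 and −0.04. A further 2 genes were chosen after their values were seen: Saa3, a serum amyloid gene, ranged 7.13-fold with replicate 5 highest, and Ptgs2, the inducible cyclooxygenase gene, 2.96-fold with replicate 5 lowest. Over all 8 lists 0 of the 75 measured genes passed the spread test after adjustment, where 0% of all genes did. At an unadjusted p under 0.05 it was 6 of the 75, where 5.58% of all genes passed.

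**Figure D4:**
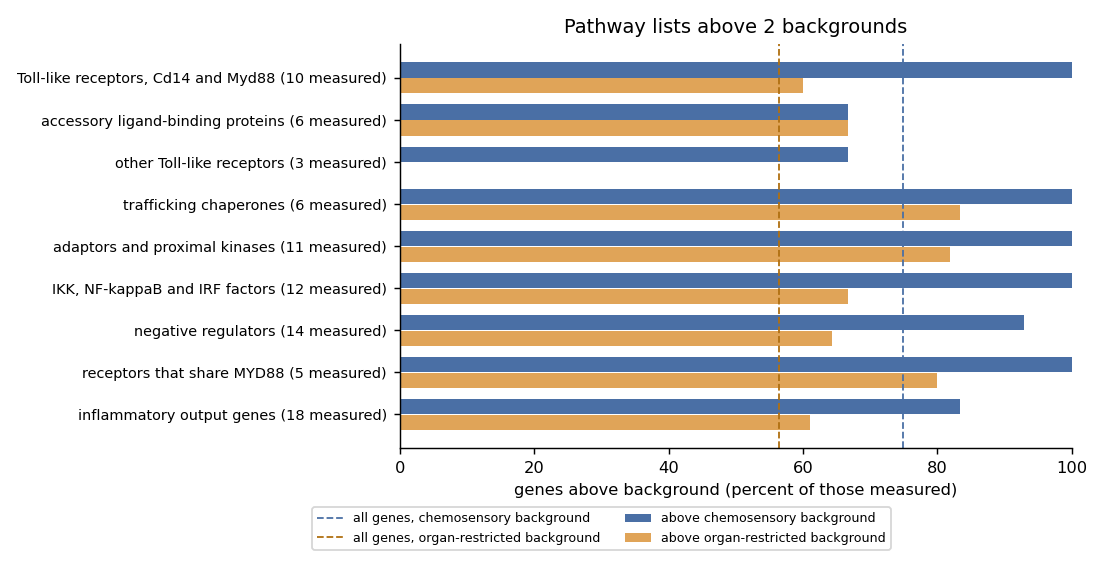
Percent of measured genes above the chemosensory background (blue bars) and above the organ-restricted background (orange bars) for the 10 members and the 8 pathway lists; dashed lines give the same for all genes, 74.9% and 56.5%. Adaptors, NF-κB genes, chaperones and MYD88-sharing receptors reach 100% for the lower background, and the other Toll-like receptors reach 0% for the stricter one.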

How the data were processed

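The values are processed signals of one-colour Affymetrix arrays on a log2 scale, deposited as 1 number per probe set and array (5 arrays, 45101 probe sets). The log base was inferred from the range of 2.46 to 15.24. RNA was amplified and biotin-labelled with Ovation kits, per the labels' protocols. The sources used here do not name the software, background correction or normalization, so the values were used as deposited. Gene symbols came from a platform annotation: 34958 had 1 symbol, 932 had several and 9211 had none here.

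For gene-level values the probe set with the highest mean stood for its gene. Background calls and the spread test (4 and 4.22 degrees of freedom) were fitted over all probe sets or genes in limma 3.58.1 (R 4.3.3, eBayes with trend) with Benjamini-Hochberg adjustment, and were tested on simulated data. The error of the background itself is shared by all genes and is not in the p-values of the background calls, which are therefore too small. Members, gene lists and tests were chosen with earlier results of these data known, and motifs with the promoter letters in view. Pathway and marker genes were named by a rule: the first 4 measured genes of a list, the genes whose background call was the rarer one in it (if at most 5), any gene past the adjusted spread test, and the 3 genes nearest to each of the 3 members of widest range. Of 21 lists, those whose values bear on the members are described. Alternatives were other backgrounds, normalizations, probe set choices and filters, and leaving out each replicate. Protein alignments that had been planned were not made. The number of arrays limits the precision.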

Additional observations from a re-analysis of the deposited data

Results flagged for a closer look

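Among 91 sets of 5 values checked (16 member probe sets, 53 named genes and 22 lists), 2 had a replicate far from the other 4, where chance alone marks about 5% of sets. Both were pan-leukocyte marker genes in replicate 3. Coro1a, an actin-binding protein gene of leukocytes, read 10.21 there, with the next lowest array at 11.30 (Dixon's ratio 0.803, against a critical value of 0.71). Cd52, a surface glycoprotein gene of lymphocytes and other leukocytes, read 9.14 there, with the next lowest array at 10.17 (Dixon's ratio 0.764). None of the 16 member probe sets was marked.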

How the results depend on the processing

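Of 1269 values recomputed under the alternatives, 1219 kept their direction and call or moved little. The choice of background mattered most. With the 99th percentile of the chemosensory receptors 6 member genes and 8 member probe sets were above background, with 1 of the other Toll-like receptors, and signals relative to it turned to −0.28 (Tlr1), −0.097 (Tlr6), −0.58 (Tlr9), −0.22 (Tlr7 probe set 1449640_at), −0.14 (Tlr4 probe set 1442827_at), −0.22 (Tlr12) and −0.47 (Irak3); the leading Tlr7 probe set was 0.28 over it and not called (limma adjusted p = 0.0812). With organ-restricted genes 6 member genes, 7 member probe sets and 0 of the other Toll-like receptors were above background, and the values were −1.71 (Tlr1), −1.52 (Tlr6), −1.15 and −1.64 (Tlr7 probe sets 1422010_at and 1449640_at), −2.003 (Tlr9), −0.40 (Tlr3 probe set 1422781_at), −1.57 (Tlr4 probe set 1442827_at), −1.65 (Tlr12), −0.88 (Tlr13), −1.89 (Irak3), −1.25 (Rel), −0.74 (Il18rap) and −0.036 (Il6). The range of the members' mean deviation was 0.21 log2 units under both, since fewer members entered it. Adgre1, a macrophage marker, was 0.05 over the organ-restricted background and not called (limma adjusted p = 0.657). Unc93b1 was 0.03 over it and not called either (limma adjusted p = 0.736). With the 90th percentile Socs1 was 0.36 and Ccl5 0.64 over background, both then called. Without probe sets that can cross-hybridise, Ptprc, a pan-leukocyte marker, was not called (limma adjusted p = 0.646), and Laptm5, also of that list, stood at −0.67 log2 units relative to background.

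Leaving out 1 replicate gave 10 member genes and 14 to 15 member probe sets above background, and a range of the members' mean deviation of 0.20 (without replicate 3) to 0.39 log2 units. For the spread test it gave 0 to 1 members at an unadjusted p (Tlr1 without replicate 1, limma-based adjusted p = 0.898) and 0 to 2 genes of all after adjustment (Xist and Eif2s3y, without replicate 1). With the median over probe sets 1 member, Tlr7, passed unadjusted (adjusted p = 0.894). No paired analysis was possible because all arrays form 1 group. Saturation and spot quality were not checked here.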
